A study of Rattus norvegicus with 8 samples.

Results

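The 10 genes of interleukin and tumour necrosis factor (TNF) signalling followed here in the rat diaphragm after a heart infarct were the receptor genes Il6r, Il6st, Osmr, Il1r1, Tnfrsf1a and Tnfrsf12a, the transcription factor gene Stat3, its inhibitor Socs3, and the acute response factor genes Cebpb and Cebpd. They were chosen by symbol, as receptors and downstream genes of these cytokines. All 10 symbols were found among the 17055 rows of the deposited table, and all 10 passed the filter on low counts, which 10522 genes passed. RNA of whole diaphragm, the muscle that draws air into the lungs, was sequenced in 8 Sprague-Dawley rats. In 4 rats myocardial infarction (MI) had been caused by ligating the left anterior descending coronary artery through an opening of the left chest wall. The 4 Sham rats had a similar operation without the ligation. Tissue was taken 16 weeks after surgery in every animal, and each animal gave 1 library. The labels give neither the sex of the rats nor the size of the infarcts, so the severity of heart disease behind each MI library is not known here.

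Interleukin 6 binds the receptor encoded by Il6r, and the pair then engages the signal-transducing chain encoded by Il6st, which oncostatin M also uses together with the chain encoded by Osmr. Kinases of the JAK family bound to these chains phosphorylate STAT3, which enters the nucleus and switches on Socs3, a feedback inhibitor, and Cebpd. Interleukin 1 and TNF signal through the products of Il1r1 and Tnfrsf1a to NF-kB and stress kinases, while Tnfrsf12a encodes the receptor for the TNF-like ligand of Tnfsf12 and is known in skeletal muscle for its induction by denervation and injury. These pathways are studied in muscle because sustained signalling through them is linked with wasting.

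The libraries held 7941402 to 24967251 counts, and 3 counts corresponded to 0.120 to 0.378 CPM (counts scaled to a common library total), a floor that covers counting error only. All values are CPM on library sizes scaled by the TMM method. The tissue label was matched by its markers: the 9 skeletal muscle markers in the table summed to 111367 to 147023 CPM in MI libraries and 121487 to 145462 CPM in Sham libraries. Sham replicates 6 and 7 and MI replicate 4 stood apart from the rest in other genes. In Sham replicate 7, the deepest library, 10 lymphocyte markers summed to 78.4 CPM, against 21.1 to 36.4 CPM in the other 7 libraries, and 11 macrophage markers to 388.2 CPM, against 146.2 to 297.0 CPM. In Sham replicate 6, 13 immediate early genes summed to 955.8 CPM, against 395.7 to 570.3 CPM in the other libraries, and Atf3, a stress-induced transcription factor gene singled out after its values were seen, was at 266.7 CPM against 7.37 to 16.4 CPM. In MI replicate 4, neutrophil markers summed to 14.1 CPM, against 1.22 to 4.74 CPM in the other libraries. Adipocyte markers summed there to 472.9 CPM, against 177.5 to 272.8 CPM, and fibroblast markers to 3531 CPM, against 1875 to 2589 CPM. Mesothelial markers were lowest in MI replicate 2, at 54.8 CPM, against 132.2 to 335.9 CPM. In bulk tissue, fewer cells of a type and less RNA per cell cannot be told apart.

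None of the 10 genes differed between MI and Sham by edgeR's quasi-likelihood test at an adjusted p under 0.05, the threshold used throughout. The same test called 0% of all genes tested higher and 0% lower. Il6r came closest, with all 4 MI values below all 4 Sham values, and Cebpb was the other gene without overlap. For comparison, the groups did not overlap, with MI lower, in 2.46% of all genes tested and, with MI higher, in 2.09%, which makes 4.55% in either direction. The log2 fold change of MI over Sham was below 0 for 7 of the 10 genes, against 51.3% of all genes, and its median over the 10 was -0.11, against -0.0070 over all genes. At an unadjusted edgeR p under 0.05 stood 1 of the 10 genes, Il6r, against 8.14% of all genes, of which 4.47% of all were lower and 3.67% higher in MI. DESeq2 called 0 of the 10, with 0.0855% of all genes called higher and 0.0475% lower, and limma-voom called 0% of all genes and 0 of the 10.

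**Figure D1:**
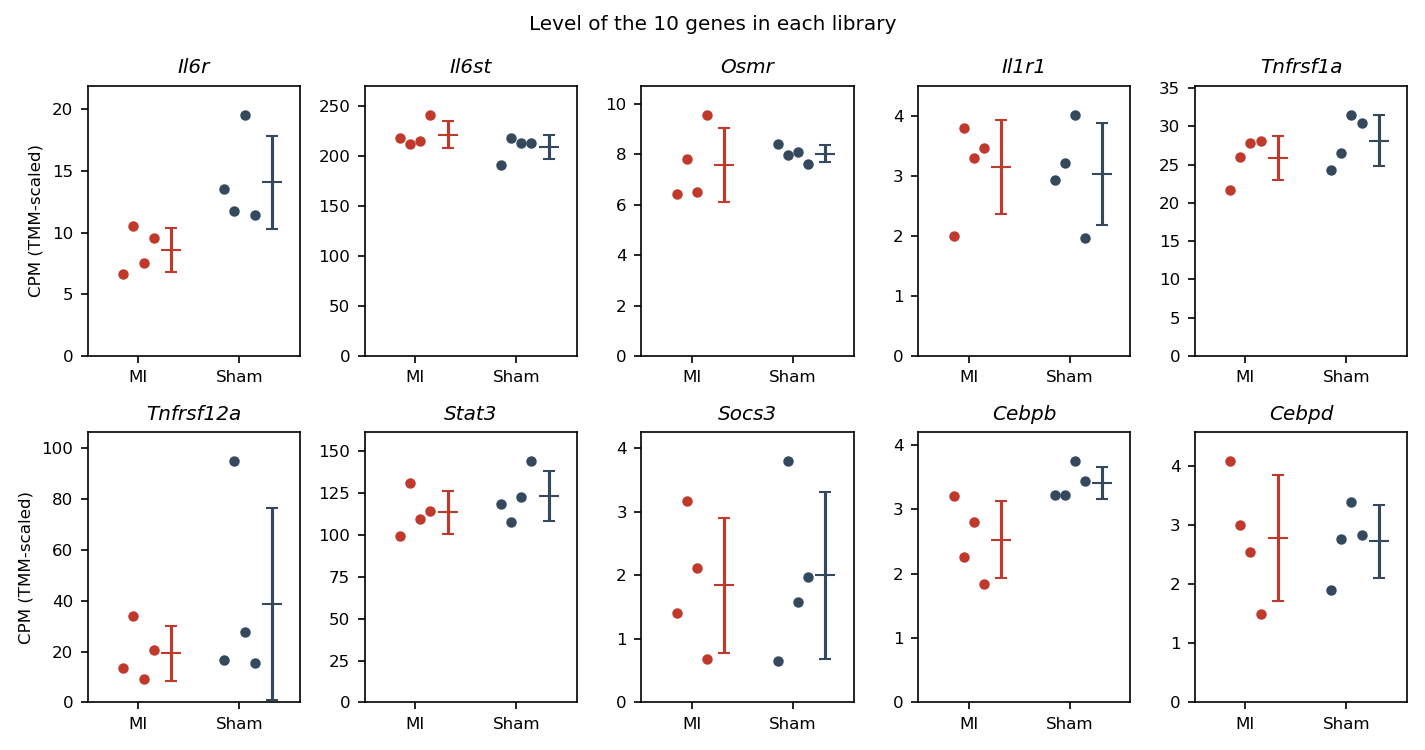
Level of each of the 10 genes in CPM, with 1 point per library in replicate order from left to right, and the mean with the SD (n = 4 each) beside the points; MI libraries stand left of Sham libraries and each axis starts at 0. The 4 MI points of Il6r lie at 6.68 to 10.5 CPM, below the Sham points at 11.4 to 19.6 CPM, and 1 Sham library reaches 94.7 CPM for Tnfrsf12a.

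Il6r, which encodes the interleukin 6 binding chain, was at 6.68, 10.5, 7.53 and 9.57 CPM in MI replicates 1 to 4, against 13.5, 11.8, 19.6 and 11.4 CPM in Sham replicates 5 to 8. The highest MI library, replicate 2, lay just below the lowest Sham library, replicate 8, and Sham replicate 7 lay above all others. The means were 8.57 ± 1.77 CPM in MI and 14.1 ± 3.77 CPM in Sham (SD, n = 4 each), and edgeR gave a log2 fold change of -0.73 ± 0.21 (SE), which is 0.603 times the Sham level with a 95% interval of 0.440 to 0.825. Its unadjusted edgeR p of 0.00462 ranked 70 among the 10522 genes, and the adjusted p was 0.601 in edgeR and 0.235 in DESeq2. Without Sham replicate 7, the library rich in macrophage and lymphocyte markers, the log2 fold change was -0.53, at an unadjusted edgeR p of 0.0133. The animal numbers in the labels fall into 2 ranges. In the low range the mean log2 level of Il6r differed, MI minus Sham, by -0.69 between 2 MI and 1 Sham libraries. In the high range the difference was -0.70 between 2 MI and 3 Sham libraries. Because all 4 MI values lay below all 4 Sham values, MI had to be lower in any such split. In the RefSeq annotation of another assembly, GRCr8, Il6r overlaps the gene She, and how reads of overlapping genes were counted is not given in the sources used here.

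In several of the other lists examined most tested genes had a log2 fold change below 0, as Il6r did, and edgeR called 0 genes in any. Among them were TNF and NF-kB signalling (20 of 24) and immediate early genes (9 of 12), against 51.3% of all genes. All 5 tested mesothelial and all 4 tested lymphocyte markers also lay below 0. Other lists lay mostly above 0, among them adipocyte markers (6 of 7, median 0.26), endothelial markers (5 of 8) and fibroblast markers (5 of 8). The glucocorticoid-responsive genes and the macrophage markers are described next. Of 12 glucocorticoid-responsive genes, 11 had a log2 fold change below 0 (median -0.19), against 51.3% of all genes, and 3 stood lower at an unadjusted edgeR p under 0.05, against 4.47% of all genes. Zbtb16, a transcription factor gene induced by glucocorticoids, was at 23.3 to 43.5 CPM in MI against 55.1 to 81.6 CPM in Sham, with a log2 fold change of -1.03 ± 0.18 that DESeq2 called (adjusted p = 0.000186) and edgeR did not (adjusted p = 0.518). Fkbp5, a co-chaperone of the glucocorticoid receptor, was highest in Sham replicate 7 at 41.6 CPM, the library in which Il6r was highest too, and ranged from 10.9 to 13.9 CPM in MI and from 12.8 to 41.6 CPM in Sham. The summed level of the 12 genes, to which a few abundant ones contribute most, overlapped at 1924 to 2928 CPM in MI and 2174 to 3334 CPM in Sham. Of the 11 macrophage markers, 9 were below 0 (median -0.23), against 51.3% of all genes. At an unadjusted edgeR p under 0.05 stood 1 of them, lower in MI, against 4.47% of all genes. Their summed levels were 146.2 to 297.0 CPM in MI and 162.8 to 388.2 CPM in Sham. Of these markers with the smallest p, the scavenger receptor gene Cd163 had a log2 fold change of -0.75 ± 0.31 and the complement gene C1qa -0.71 ± 0.36, each highest in Sham replicate 7. Other macrophage markers lay close to 0, with log2 fold changes of -0.13 ± 0.39 for Cd68, -0.07 ± 0.29 for Emr1, 0.05 ± 0.30 for Aif1 and 0.06 ± 0.43 for Lyz2. The part of these genes in the lower Il6r level was not tested. Hepatocyte markers, which the liver below the diaphragm could bring in, summed to 56.4 to 186.7 CPM in MI and 108.1 to 150.5 CPM in Sham. The markers Fga and Fgb had no count in any library. Alb was at 0.797 ± 1.47 CPM in MI, where the highest library reached 2.997 CPM, and at 0.186 ± 0.228 CPM in Sham. Most of the sum came from Tf, at 73.9 ± 40.0 CPM in MI and 114.4 ± 16.8 CPM in Sham, and from the fibrinogen gene Fgg, at 21.5 ± 21.996 CPM in MI and 10.3 ± 3.81 CPM in Sham. Marker sums of the other cell types overlapped between the groups. They were 292.2 to 405.2 CPM in MI and 317.3 to 362.0 CPM in Sham for endothelium, and 1994 to 3531 CPM in MI and 1875 to 2589 CPM in Sham for fibroblasts. Of the 8 fibroblast markers, 3 stood higher in MI at an unadjusted edgeR p under 0.05, against 3.67% of all genes, and none passed after adjustment. These had log2 fold changes of 0.76 ± 0.26 for Lum, 0.47 ± 0.16 for Fap and 0.34 ± 0.15 for Dcn. The other markers lay closer to 0 or below it, at 0.14 ± 0.40 for Col1a1, 0.06 ± 0.12 for Dpt, -0.0046 ± 0.26 for Col3a1, -0.13 ± 0.15 for Pdgfra and -0.42 ± 0.24 for Pi16. The median of the list was 0.10. Adipocyte markers summed to 212.9 to 472.9 CPM in MI and 177.5 to 253.9 CPM in Sham. Mesothelial markers summed to 54.8 to 251.0 CPM in MI and 148.6 to 335.9 CPM in Sham, and neutrophil markers to 1.47 to 14.1 CPM in MI and 1.22 to 3.95 CPM in Sham.

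The promoter of Il6r is shown because this gene stood farthest from Sham relative to its error, that of Cebpb because it was the other gene without overlap, and that of Tnfrsf12a because it varied most between animals. Each is the 250 bases before the annotated start of transcription, written 5′ to 3′ in the direction of the gene, from RefSeq in build GRCr8, which differs from the build of the counts. Il6r lies on the minus strand at chr2:177645210-177645459, Cebpb on the plus strand at chr3:176816755-176817004 and Tnfrsf12a on the minus strand at chr10:13213649-13213898. Capitals mark a match to a searched motif.
Il6r promoter: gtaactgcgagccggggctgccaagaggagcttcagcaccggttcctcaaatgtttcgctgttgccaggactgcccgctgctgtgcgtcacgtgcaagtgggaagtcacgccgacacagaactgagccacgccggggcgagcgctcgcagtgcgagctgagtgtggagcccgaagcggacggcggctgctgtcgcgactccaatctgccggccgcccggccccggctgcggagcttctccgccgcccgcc
Cebpb promoter: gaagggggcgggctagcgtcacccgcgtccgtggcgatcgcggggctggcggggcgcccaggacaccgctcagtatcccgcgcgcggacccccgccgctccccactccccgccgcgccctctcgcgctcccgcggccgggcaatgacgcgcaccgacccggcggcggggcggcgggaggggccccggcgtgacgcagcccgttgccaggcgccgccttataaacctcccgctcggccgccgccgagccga
Tnfrsf12a promoter: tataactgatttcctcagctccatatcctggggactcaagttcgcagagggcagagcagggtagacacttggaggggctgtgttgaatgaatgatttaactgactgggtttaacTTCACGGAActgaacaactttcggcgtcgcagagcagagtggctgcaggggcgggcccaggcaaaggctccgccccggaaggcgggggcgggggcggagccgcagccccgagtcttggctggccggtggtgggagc
The reference holds a promoter for 9 of the 10 genes. Each was searched on both strands for the STAT motif TTCNNNGAA, for the C/EBP motif TTGCNNAA, whose reverse strand reads TTNNGCAA, and for an NF-kB motif in 2 forms, GGGNN followed by TTTCC and GGGAAN followed by TTCC, which can overlap one another. The promoter of Tnfrsf12a held 1 STAT match, TTCACGGAA, whose first base lies 136 bases before the start. The other 8 windows held no match. Each window precedes the start annotated in the reference, and whether that start is used in diaphragm is not known. Other starts and sequence outside the windows, those of Socs3 included, were not searched. Of 33469 promoters of the same length in the reference, 7.67% held the STAT motif, 9.22% the C/EBP motif and 1.52% an NF-kB motif. The windows of Il6r and Cebpb are rich in G and C, at 68.8% and 80% of their bases, against 60.8% in Tnfrsf12a.

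Il6st, the signal-transducing chain shared by the interleukin 6 family, was the steadiest of the 10 genes. It was at 217.6, 212.0, 215.0 and 241.2 CPM in MI replicates 1 to 4, against 190.9, 217.7, 213.2 and 213.3 CPM in Sham replicates 5 to 8. The groups overlapped, with the lowest library in Sham (replicate 5) and the highest in MI (replicate 4). The log2 fold change in edgeR was 0.08 ± 0.07 (SE), with a 95% interval of -0.08 to 0.25, so that a difference of more than 1.19 times the Sham level lies outside the interval. A gene without an assigned name, a long non-coding RNA, overlaps Il6st in GRCr8, with the same limit on the counts as for Il6r.

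Set against the shared chain within each library, Il6r gave 3.07, 4.96, 3.504 and 3.97 reads per 100 reads of Il6st in MI replicates 1 to 4. The Sham replicates 5 to 8 gave 7.10, 5.41, 9.17 and 5.36 reads per 100. Because both genes come from the same library, the ratio does not depend on library scaling. The groups did not overlap, but Il6st varied little, so the ratio largely repeats the levels of Il6r. For Osmr, the oncostatin M chain, the same ratio was 3.41 ± 0.499 reads per 100 reads of Il6st in MI and 3.86 ± 0.377 in Sham (SD, n = 4 each), with overlap.

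Osmr itself was at 6.41, 7.83, 6.52 and 9.57 CPM in MI replicates 1 to 4, against 8.42, 7.98, 8.10 and 7.63 CPM in Sham replicates 5 to 8. The Sham libraries were close together, and of the MI libraries 2 lay below them, 1 among them and 1 above. Its log2 fold change was -0.09 ± 0.15 (edgeR adjusted p = 0.872), with a 95% interval of 0.742 to 1.18 times the Sham level.

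Il1r1, the signalling receptor for interleukin 1, was at 2.00, 3.79, 3.30 and 3.46 CPM in MI replicates 1 to 4, against 2.93, 3.22, 4.01 and 1.97 CPM in Sham replicates 5 to 8. Each group held 1 library near 2.00 CPM, and the rest overlapped. The log2 fold change was 0.0079 ± 0.27 in edgeR (adjusted p = 0.994), a sign that changed in 7 of 18 alternatives, and the 95% interval reached from 0.6696 to 1.51 times the Sham level, so that a change of moderate size could not be detected. The difference in mean log2 level, MI minus Sham, was -0.09 in the low and 0.20 in the high range of the animal numbers.

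Tnfrsf1a, the TNF receptor found on most cell types, was at 21.7, 26.0, 27.8 and 28.0 CPM in MI replicates 1 to 4, against 24.2, 26.4, 31.5 and 30.4 CPM in Sham replicates 5 to 8. The lowest library was in MI and the 2 highest were in Sham, with overlap between. In edgeR the log2 fold change was -0.12 ± 0.12 (edgeR adjusted p = 0.768), with a 95% interval of 0.765 to 1.10 times the Sham level.

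Tnfrsf12a varied far more between animals than the other receptors. It was at 13.5, 34.0, 9.23 and 20.6 CPM in MI replicates 1 to 4, against 16.8, 94.7, 27.9 and 15.4 CPM in Sham replicates 5 to 8. Sham replicate 6 alone lay far above the rest, and it was the library with the highest immediate early genes and Atf3. The levels spanned 10.3-fold over the 8 libraries, 3.68-fold within MI and 6.16-fold within Sham. The log2 fold change of -1.004 ± 0.70 (edgeR adjusted p = 0.705) rested on that library: without Sham replicate 6 it was -0.05, at an adjusted p of 0.983. The immediate early genes summed to 398.3 to 491.1 CPM in MI and 395.7 to 955.8 CPM in Sham. Of their 12 tested members 9 were below 0 in MI, against 51.3% of all genes, with a median log2 fold change of -0.36. Within the ranges of the animal numbers, the difference in mean log2 level of Tnfrsf12a, MI minus Sham, was 0.35 in the low range and -1.32 in the high range, which holds Sham replicate 6. Without Atf3 the sum was still highest in Sham replicate 6, at 689.1 CPM, against 384.2 to 559.0 CPM in the other libraries. Their part in the level of Tnfrsf12a was not tested.

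**Figure D2:**
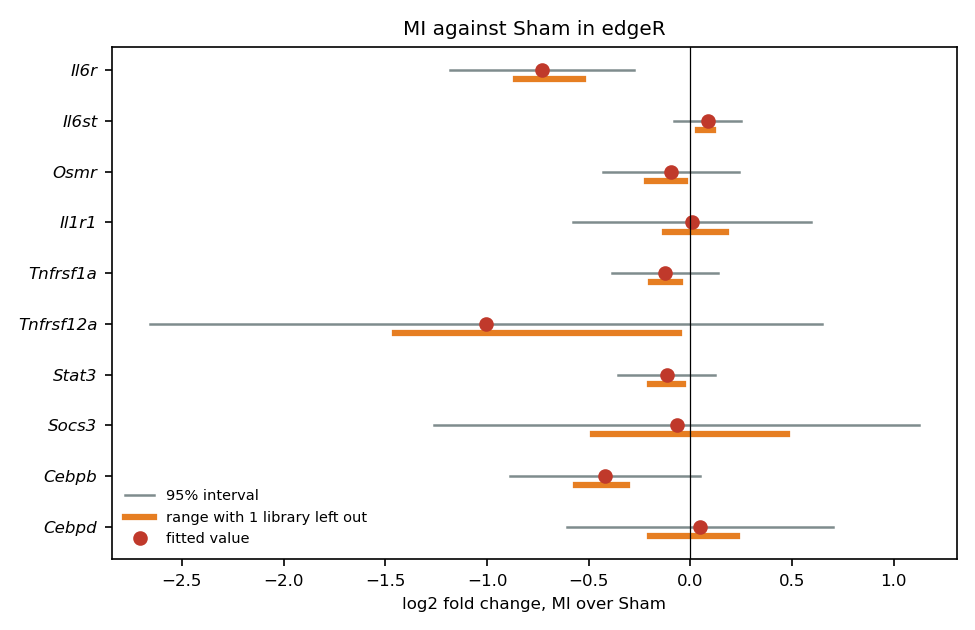
Fitted log2 fold change of MI over Sham for each gene in edgeR (points), its 95% interval (thin lines) and the range of the fitted value when each library is left out in turn (thick lines). The interval of Il6r lies below 0 before adjustment for the 10522 genes tested, and that of Tnfrsf12a runs from -2.66 to 0.65.

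Stat3, the transcription factor at which the interleukin 6 family receptors converge, was at 99.6, 130.7, 109.6 and 114.0 CPM in MI replicates 1 to 4, against 118.4, 107.9, 122.7 and 143.8 CPM in Sham replicates 5 to 8. The groups overlapped, with Sham replicate 8 highest and MI replicate 1 lowest. The fitted log2 difference, MI over Sham, was -0.12 ± 0.11 (edgeR adjusted p = 0.760), with a 95% interval of 0.782 to 1.09 times the Sham level. Phosphorylation of the protein, through which it acts, was not measured.

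Socs3, the feedback inhibitor that STAT3 induces, was low, with 6 to 59 counts per library. Its levels were 1.40, 3.18, 2.12 and 0.692 CPM in MI replicates 1 to 4, against 0.659, 3.80, 1.58 and 1.97 CPM in Sham replicates 5 to 8. Each group held 1 library under 1 CPM, and the highest value was again in Sham replicate 6. At 6 counts the counting error alone is 40.8% of the value. The log2 fold change was -0.07 ± 0.53 (edgeR adjusted p = 0.978), turning to 0.47 without Sham replicate 6, and the 95% interval of 0.418 to 2.18 times the Sham level includes a 2-fold difference in either direction. Per 100 reads of Stat3, Socs3 gave 1.59 ± 0.780 reads in MI and 1.68 ± 1.28 reads in Sham (SD, n = 4 each).

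Cebpb, a basic leucine zipper factor of the acute phase response, was at 3.21, 2.26, 2.79 and 1.84 CPM in MI replicates 1 to 4, against 3.22, 3.22, 3.74 and 3.44 CPM in Sham replicates 5 to 8. All MI libraries lay below all Sham libraries, but MI replicate 1 and Sham replicate 6 were almost level, at 3.206 and 3.217 CPM. The means were 2.53 ± 0.597 CPM in MI and 3.41 ± 0.248 CPM in Sham (SD, n = 4 each), and the log2 fold change was -0.42 ± 0.21 (edgeR adjusted p = 0.633) on 16 to 97 counts per library. With every library thinned to an equal depth, that of Sham replicate 8, the value was -0.24.

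Cebpd, the sister factor that STAT3 induces directly, was at 4.07, 3.00, 2.54 and 1.499 CPM in MI replicates 1 to 4, against 1.90, 2.77, 3.39 and 2.83 CPM in Sham replicates 5 to 8. The highest and the lowest library were both in MI. Its log2 fold change was 0.05 ± 0.30 (edgeR adjusted p = 0.972), and it was -0.20 without MI replicate 1. Within the ranges of the animal numbers, the values for Cebpd and Socs3 differed in sign: for Cebpd the difference in mean log2 level, MI minus Sham, was 0.88 in the low range, which holds 1 Sham library, and -0.61 in the high range, and for Socs3 it was 1.68 and -0.91 in the same ranges. Reads of Cebpd per 100 reads of Cebpb numbered 107.9 ± 25.6 in MI and 79.5 ± 14.04 in Sham (SD, n = 4 each), with overlap.

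**Figure D3:**
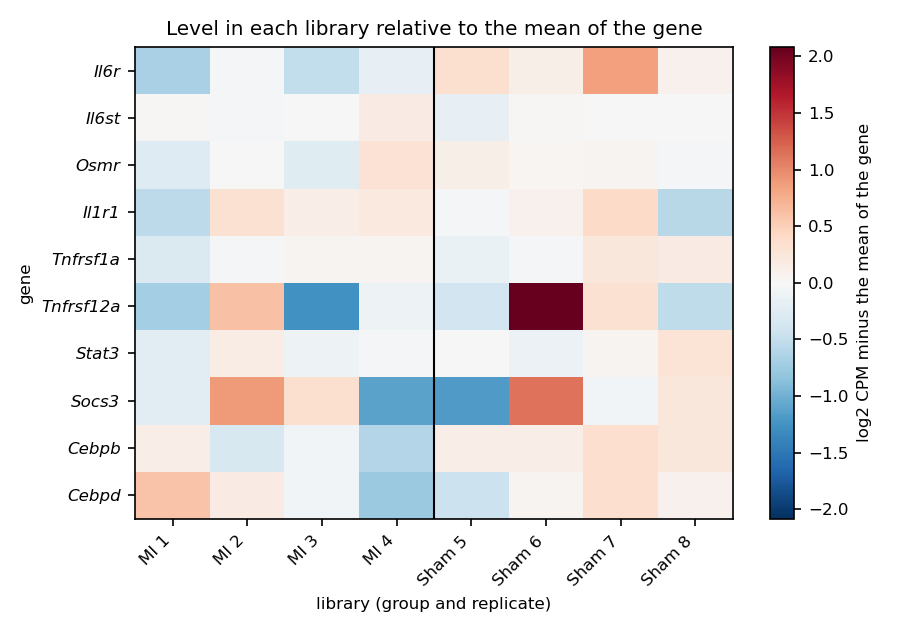
Level of each gene (rows) in each library (columns, MI left of the line and Sham right of it) as log2 CPM minus the mean of the gene over the 8 libraries, red for higher and blue for lower. The deepest red is Tnfrsf12a in Sham replicate 6, which also holds the highest Socs3, and the row of Il6st is nearly blank.

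MI replicates 1 and 4 and Sham replicate 7 held more of the extreme values than other libraries. Sham replicate 7 held the highest value of 4 genes, Il6r, Il1r1, Tnfrsf1a and Cebpb, and Sham replicate 6 that of 2, Tnfrsf12a and Socs3. MI replicate 4 held the highest Il6st and Osmr, and the lowest Cebpb and Cebpd. MI replicate 1 held the lowest value of 4 genes, Il6r, Osmr, Tnfrsf1a and Stat3, and the highest Cebpd.

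The spread between animals of the same group differed widely among the 10 genes. The biological coefficient of variation, which edgeR estimates per gene after removing counting error and moderates towards genes of similar level, was 9.91% for Il6st, a value at or above that of only 3.24% of all genes tested. It was 12.4% for Stat3, 13.4% for Tnfrsf1a and 14.5% for Osmr, each below the trend for its level. For Il6r it was 20.8%, against a trend of 18.6%, and for Cebpb, Il1r1 and Cebpd it was 17.1%, 23.7% and 26.3%. At the other end it was 49.6% for Socs3 and 65.4% for Tnfrsf12a, against trends of 27.3% and 15.95%, at the 98.4 and 99.4 percentiles of all genes.

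**Figure D4:**
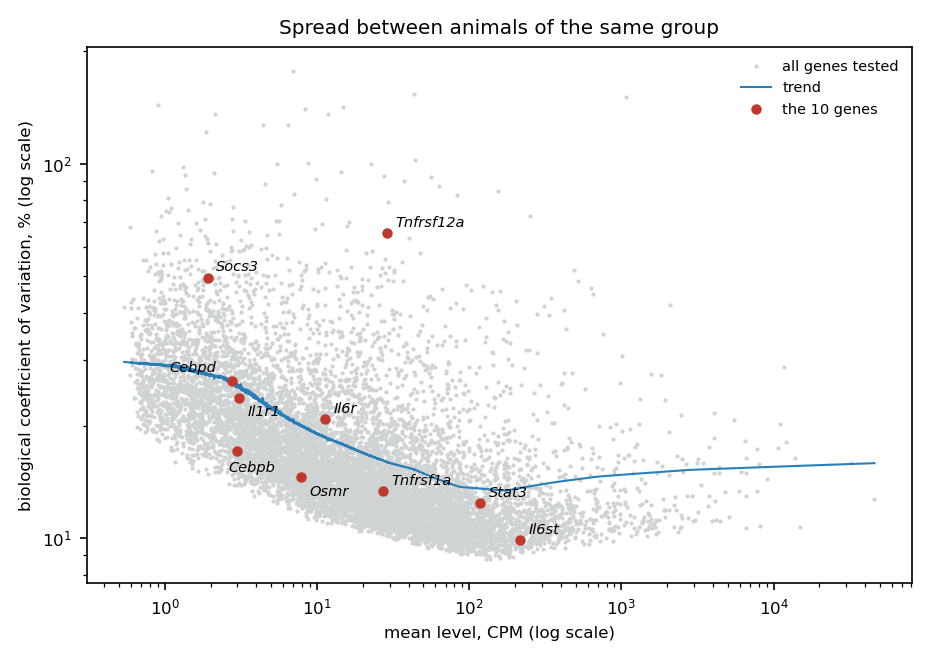
Biological coefficient of variation in percent (log scale) against mean level in CPM (log scale) for every gene tested (grey points), with the trend (line) and the 10 genes named. Tnfrsf12a and Socs3 stand far above the trend, at 65.4% and 49.6%, and Il6st lies below it at 9.91%.

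Whether functionally linked members varied together over the 8 libraries was examined for 5 pairs, on log2 CPM, with exact two-sided permutation tests. For Cebpd and Cebpb, Pearson's r was 0.60 (exact permutation p = 0.114, 0.338 after Benjamini-Hochberg adjustment over the 5 pairs) and Spearman's rho 0.36 (exact permutation p = 0.389, adjusted 0.894). Without MI replicate 4 and Sham replicate 5, the libraries farthest from the median of Cebpd, r was 0.29. For Socs3 and Cebpd, r was 0.57 (exact permutation p = 0.135, adjusted 0.338) and rho 0.26 (exact permutation p = 0.536, adjusted 0.894). It turned to an r of -0.63 without the same libraries, which held the 2 lowest Socs3 values, so that this removal cut the range of Socs3. With 1 library left out, r was 0.32 to 0.77. Stat3 and its target Socs3 gave an r of 0.12 (exact permutation p = 0.779, adjusted 0.779) and a rho of 0.02 (exact permutation p = 0.977, adjusted 0.977), with an r of -0.0096 without MI replicate 1 and Sham replicate 8. Il6r and Il6st gave -0.34 (exact permutation p = 0.425, adjusted 0.708) and -0.50 (exact permutation p = 0.216, adjusted 0.894), with an r of -0.54 without MI replicate 1 and Sham replicate 7. Osmr and Il6st gave 0.21 (exact permutation p = 0.635, adjusted 0.779) and -0.05 (exact permutation p = 0.935, adjusted 0.977), with an r of 0.52 without MI replicates 1 and 3. None of the 5 pairs passed after adjustment.

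For each gene, the gene outside the 10 with the closest profile was found as the smallest root mean square difference between log2 CPM profiles, each centred on its mean over the 8 libraries, among genes of at least 1 CPM and of similar SD. For Il6r it was Adarb1, which encodes an RNA-editing enzyme, at a difference of 0.165 against an SD of Il6r of 0.479. For Tnfrsf12a it was the cell cycle inhibitor gene Cdkn2b, at 0.411 against an SD of 1.03, and for Socs3 the kinase gene Stk11, at 0.425 against 0.835. The closest profile to Cebpb was that of Taf6l at 0.114, and that to Cebpd was Mttp at 0.183. For the remaining genes the closest were Rab8a for Il6st at 0.0448, Pard3b for Osmr at 0.0544, Grk5 for Il1r1 at 0.0786, Tln1 for Tnfrsf1a at 0.0545 and RGD1311739 for Stat3 at 0.0523.

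Ligands and other receptors of the interleukin 6 family were next described, to place the 10 genes in their pathways. The ligand gene Il6 was at the limit of detection with 3 counts over the 4 MI libraries and 15 over the 4 Sham libraries, and so were Lif, with 0 in MI and 5 in Sham, and Osm, with 0 in MI and 4 in Sham, so no fold change of these is given. The ligand gene Cntf, by contrast, was at 4.56 ± 1.25 CPM in MI and 3.78 ± 1.10 CPM in Sham. Of the 13 listed genes, 12 were in the table and 7 were tested, 4 above and 3 below 0, with the median at 0.23, which was -0.20 without the filter on low counts. None passed in either direction. Il11ra1, the interleukin 11 receptor chain, was at 30.1 to 52.4 CPM in MI and 49.5 to 57.1 CPM in Sham. Its log2 fold change was -0.35 ± 0.14 (edgeR adjusted p = 0.601), and the groups overlapped. Cntfr, the ciliary neurotrophic factor receptor, was at 1.604 ± 0.993 CPM in MI and 2.91 ± 1.124 CPM in Sham, while Lifr, a further partner of the shared chain, had a log2 fold change of 0.26 ± 0.14 and the ligand gene Ctf1 0.23 ± 0.20.

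Kinases, factors and inhibitors of JAK-STAT signalling showed the same absence of calls. Of 18 tested, 7 were above and 11 below 0, with the median at -0.09 and 0 past the threshold in either direction. Jak1 and Jak2, the kinases of the interleukin 6 receptor complex, were at 149.0 and 13.8 CPM in MI against 149.7 and 14.6 CPM in Sham, with log2 fold changes of -0.0057 ± 0.11 and -0.08 ± 0.15. Jak3, a kinase of lymphocyte cytokine receptors, was at 0.468 to 0.856 CPM in MI and 1.03 to 1.97 CPM in Sham, on 7 to 49 counts per library. The difference was -1.03 ± 0.34 on the log2 scale (edgeR adjusted p = 0.601). Jak3 was the only gene of the 18 without overlap of the groups, against 2.46% of all genes without overlap and lower in MI. Socs2, an inhibitor of growth hormone signalling, lay in the other direction at 6.94 ± 2.41 CPM in MI and 4.61 ± 0.722 CPM in Sham (log2 fold change 0.62 ± 0.26, edgeR adjusted p = 0.601). Tyk2 and Socs6 had log2 fold changes of -0.28 ± 0.14 and -0.22 ± 0.13.

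Target genes of STAT3 and C/EBP factors in the acute response were divided, with 7 of 13 tested above 0 and 6 below, the median at 0.02 and none past the threshold in either direction. Serpina3n, a secreted protease inhibitor, was at 4.11 ± 2.59 CPM in MI and 1.53 ± 1.18 CPM in Sham (log2 fold change 1.27 ± 0.66), and Lbp, which binds bacterial lipopolysaccharide, had 0.94 ± 0.56. The sign of the median of the list was not stable. It was -0.21 without MI replicate 2, 0.21 without Sham replicate 7, and below 0 in 6 of the 8 fits that left out 1 library. Without the filter on low counts it was -0.049. The set of genes also changed, with 13 to 15 in the fits that left out 1 library and 20 without the filter. The transcriptional regulators Bcl6 and Bcl3 lay on the other side, at -0.46 ± 0.21 and -0.64 ± 0.32. Among listed genes below the filter on low counts, Pim1 averaged 0.308 CPM in MI and 0.863 CPM in Sham, and Mt1a 0.439 and 0.932 CPM. Mt2A and Fosl2 also averaged lower in MI, and Saa4, Orm1 and Cebpa higher, each on at most 81 counts over the 8 libraries. The acute phase gene A2m had no count in any library.

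Of the interleukin 1 pathway, 5 of 15 tested genes were above 0 and 10 below, with the median at -0.08 and none past the threshold in either direction. The ligand gene Il1b was at 2.34 ± 1.66 CPM in MI and 1.61 ± 0.617 CPM in Sham. The smallest p belonged to Tollip, an inhibitor of the pathway, at -0.15 ± 0.09, followed by the ligand gene Il18 at -0.89 ± 0.57, the interleukin 33 receptor gene Il1rl1 at -0.52 ± 0.35 and the kinase adaptor gene Tab1 at -0.17 ± 0.11.

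Among ligands and receptors of the TNF superfamily, 5 of 14 tested genes were above 0 and 9 below, with the median at -0.13 and none past the threshold in either direction. Tnf was at 1.15 ± 0.589 CPM in MI and 0.774 ± 0.356 CPM in Sham (SD, n = 4 each), on 4 to 20 counts per library. Tnfsf12, the ligand of the receptor encoded by Tnfrsf12a, was at 5.57 ± 0.491 CPM in MI and 5.24 ± 0.917 CPM in Sham, a log2 fold change of 0.10 ± 0.17. The lymphotoxin receptor gene Ltbr was at 12.1 to 18.6 CPM in MI and 19.3 to 25.03 CPM in Sham (log2 fold change -0.38 ± 0.15, edgeR adjusted p = 0.601). Ltbr was the only gene of the 14 without overlap, against 2.46% of all genes without overlap and lower in MI. Tnfrsf1b, the TNF receptor found mainly on immune and endothelial cells, had -0.46 ± 0.33, and the death ligand gene Tnfsf10 had 0.16 ± 0.14.

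In TNF and NF-kB signalling, 20 of the 24 tested genes lay below 0, against 51.3% of all genes, and 4 above, with the median at -0.10 and none past the threshold in either direction. The groups did not overlap, with MI lower, for 2 of the 24, against 2.46% of all genes. These were Tradd, the adaptor of the TNF receptor, at -0.25 ± 0.12 and the death domain adaptor gene Fadd at -0.45 ± 0.24. The kinase gene Map3k14 was at 4.23 ± 1.25 CPM in MI and 6.33 ± 1.06 CPM in Sham (log2 fold change -0.57 ± 0.23), and the adaptor gene Traf2 at 21.7 ± 4.03 CPM in MI and 27.3 ± 2.51 CPM in Sham (-0.33 ± 0.14), each at an edgeR adjusted p of 0.601. The NF-kB subunit gene Rela and the inhibitor gene Nfkbia, itself an NF-kB target, were near 0 at -0.06 ± 0.10 and -0.10 ± 0.20.

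**Figure D5:**
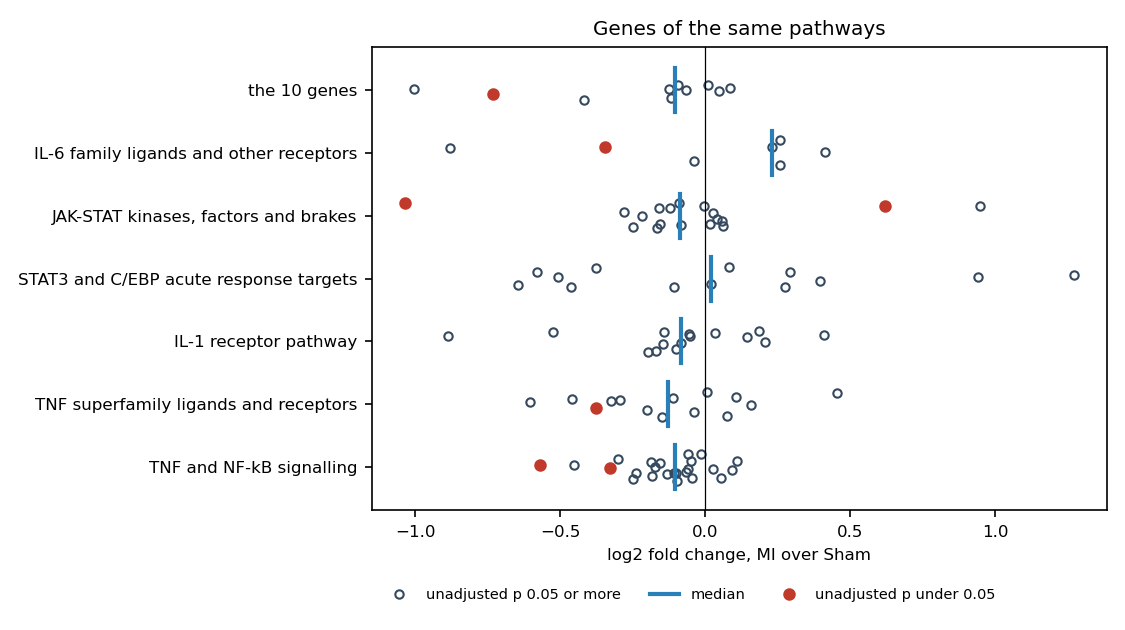
Log2 fold change of MI over Sham in edgeR for each tested gene of the 10 and of the 6 pathway lists (points), with the median of each list (bar) and genes at an unadjusted p under 0.05 filled. Points lie on either side of 0 in every list, the medians run from -0.13 to 0.23, and no point passed after adjustment over all genes.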

How the data were processed

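Diaphragm RNA was turned into Illumina libraries with SMARTer and KAPA kits, according to the labels' protocols. The deposited values are the authors' raw counts of reads by gene symbol, with a column for each animal. Named in the submitters' processing notes are bcl2fastq, STAR 2.5.0a, TopHat, TopHat2, Cufflinks and build rn5. Which program counted reads, on what annotation and with what handling of shared reads is not given in the sources used here, and the labels mention no strand-keeping step, so antisense reads cannot be told apart. Levels of different genes are not compared, because no transcript lengths were used.

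The 10 genes and the pathway and marker lists were chosen with earlier results of these data known. Tests used edgeR 4.0.16 in R 4.3.3 with TMM scaling, the filterByExpr filter and its two-sided quasi-likelihood test with robust estimation, adjusted by Benjamini-Hochberg over 10522 genes. From each pathway list up to 4 tested genes with the smallest p are named, with 13 ligands, receptors, kinases and NF-kB genes whatever their result, of which Nfkb1 is not used here. Atf3, Cntf and the untested acute response targets were named after their values were seen. So were the marker genes Cd68, Emr1, Aif1, Lyz2, Tf, Fgg, Lum, Fap, Dcn, Col1a1, Dpt, Col3a1, Pdgfra, Pi16 and Alb. Some list members had no matching row and are not analysed here. Correlations used log2 CPM with a prior count of 2. Pairs of libraries of a group differed far beyond sampling noise, so each counted as 1 replicate. The labels name separate animals and give no batch. Alternatives were DESeq2 1.42.0, limma-voom 3.58.1 with and without sample weights, other scalings and filters, no robust estimation, the range of the animal numbers as a term, thinned counts, a threshold of 0.1 and each library left out in turn.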

Additional observations from a re-analysis of the deposited data

Results flagged for a closer look

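The 20 groups of 4 libraries examined were 1 for each of the 10 genes in MI and in Sham. A library was flagged when its gap to its nearest neighbour took up an unusually large share of the range of the group. Chance flags about 1 in 20 groups. In 2 groups a library was flagged, at shares of 0.843 for Tnfrsf12a and 0.832 for Il6st, both in Sham. In some other groups the gap also took up most of the range but was not flagged. Among them was Il6r in Sham, with replicate 7 at 19.6 CPM and the other libraries at 11.4 to 13.5 CPM. Tnfrsf12a in Sham replicate 6 was at 94.7 CPM, while the other Sham libraries lay at 15.4 to 27.9 CPM. Il6st in Sham replicate 5 was at 190.9 CPM, while the other Sham libraries lay at 213.2 to 217.7 CPM, and without it the log2 fold change of Il6st was 0.04.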

How the results depend on the processing

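Across 18 alternatives each, the log2 fold changes of Il6r, Il6st, Osmr, Tnfrsf1a, Tnfrsf12a, Stat3 and Cebpb kept their sign, and none of the 10 genes passed in any of them. Il6r ranged from -0.86 to -0.53, the value without Sham replicate 7, and its adjusted p was never below 0.235. Tnfrsf12a ranged from -1.45 to -0.05. The sign turned for Il1r1 with limma-voom (-0.075) and thinned counts (-0.11), for Socs3 with limma-voom (0.057), with sample weights (0.10) and with the animal number range (0.052), and for Cebpd with sample weights (-0.023), the animal number range (-0.033) and thinned counts (-0.20); the cause was not tested. Leaving out 1 library gave -0.12 to 0.18 for Il1r1, -0.48 to 0.47 for Socs3 and -0.20 to 0.23 for Cebpd. DESeq2 called 9 genes higher and 5 lower, and leaving out 1 library gave 0 to 1 higher and 514 (without Sham replicate 7) to 1090 genes at an unadjusted p under 0.05. The median of the interleukin 6 family list was -0.20 without the filter, which adds genes of very few counts, 0.020 with thinned counts and 0.13 to 0.26 with 1 library left out, and that of the JAK-STAT list -0.16 (without MI replicate 3) to -0.047 (without MI replicate 4). On deviations from the group means, r of Il6r and Il6st was 0.083. For Cebpd and Cebpb it was 0.83 (exact permutation p = 0.0503, not adjusted), and r was 0.11 (without MI replicate 4) to 0.75 with 1 library left out. It was then -0.54 to 0.63 for Osmr and Il6st and -0.046 to 0.35 for Stat3 and Socs3. No paired analysis was possible because the groups share no replicate number. Depth limits Socs3, Cebpb, Cebpd and Il1r1, with 6, 16, 13 and 16 counts in their lowest library.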
